A study of Mus musculus with 2 samples.

Results

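The 8 genes described here were grouped as meningeal and choroid plexus secreted proteins: Ptgds, Enpp2, Igf2, Igfbp2, Dcn, Mgp, Col1a2 and Ttr. They were chosen by gene symbol among the rows given to annotated genes, and all 8 had reads in both libraries, out of 18534 annotated genes with at least 1 read. The tissue was left cerebral cortex from B6CASTF1/J mice at 18 to 20 months of age, a cross between laboratory and wild-derived (castaneus) parents. There were 2 libraries of 1 group, replicate 1 and replicate 2, each made from 2 µg of RNA. The labels number them as biological replicates and give both the same donor entry, and whether they came from separate animals is not given, so the spread between them may be technical. No treatment, genotype or time was compared. RNA was sequenced as long reads, so that 1 read stands for 1 complementary DNA molecule and shows which exons were joined in it.

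The meninges are the membranes around the brain, and their fibroblasts make collagen and proteoglycans. The choroid plexus is the epithelium in the ventricles that makes cerebrospinal fluid. Both release proteins into that fluid, among them the enzyme that makes prostaglandin D2 (Ptgds), the thyroid hormone carrier transthyretin (Ttr) and an insulin-like growth factor (Igf2). Oligodendrocytes, the myelin-forming cells within the cortex, are also known to express Ptgds and Enpp2.

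Replicate 1 held 774629 reads on annotated genes and replicate 2 held 679147. Levels are given as CPM, the gene's share of those reads on the usual per-million scale, and a gene with 0 reads could have had up to 3.87 CPM in replicate 1 and 4.42 CPM in replicate 2, a limit of 3 reads. Models with a single exon took 20.6% of mouse reads in replicate 1 and 28.7% in replicate 2, and models antisense to annotated genes took 8.85% and 16.9%. The labels gave female as the sex in one field and male in another, and Xist had 34 and 29 reads while Ddx3y, Kdm5d, Eif2s3y and Uty had 0 in both libraries. Intervals are 95% Wilson intervals and, like the 3-read limit, cover counting error only.

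Ptgds was by far the most abundant of the 8. Its reads numbered 3991 in replicate 1 and 2419 in replicate 2, which was 92.75% of the reads of all 8 genes and placed it at rank 5 among all annotated genes by mean CPM. Enpp2 had 150 and 139 reads and Igfbp2 had 76 and 63. Dcn had 11 and 14 reads, Ttr 18 and 5, Mgp 7 and 2, Igf2 8 and 1, and Col1a2 4 and 3. Divided by the read-weighted length of each gene's models, the mean levels ran from 4860 CPM per kilobase for Ptgds through 73.3 for Igfbp2 and 65.4 for Enpp2 to 12.9 for Ttr. Below these stood Mgp at 9.71, Dcn at 9.65, Igf2 at 6.89 and Col1a2 at 1.87 CPM per kilobase. Neighbours in this order whose counting intervals did not overlap in either library were Ptgds and Igfbp2, and Enpp2 and Ttr. Igf2 and Col1a2 were apart in replicate 1 but not in replicate 2, and the other neighbours overlapped in both. Since a long read counts a molecule once whatever its length, the order by CPM without division is also of use. It ran Ptgds, Enpp2, Igfbp2, Dcn, Ttr, Mgp, Igf2, Col1a2, which differed in the place of 5 of the 8 genes. In this CPM order the intervals of Ptgds and Enpp2, Enpp2 and Igfbp2, and Igfbp2 and Dcn did not overlap in either library. The other neighbours by CPM overlapped in both.

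**Figure D1:**
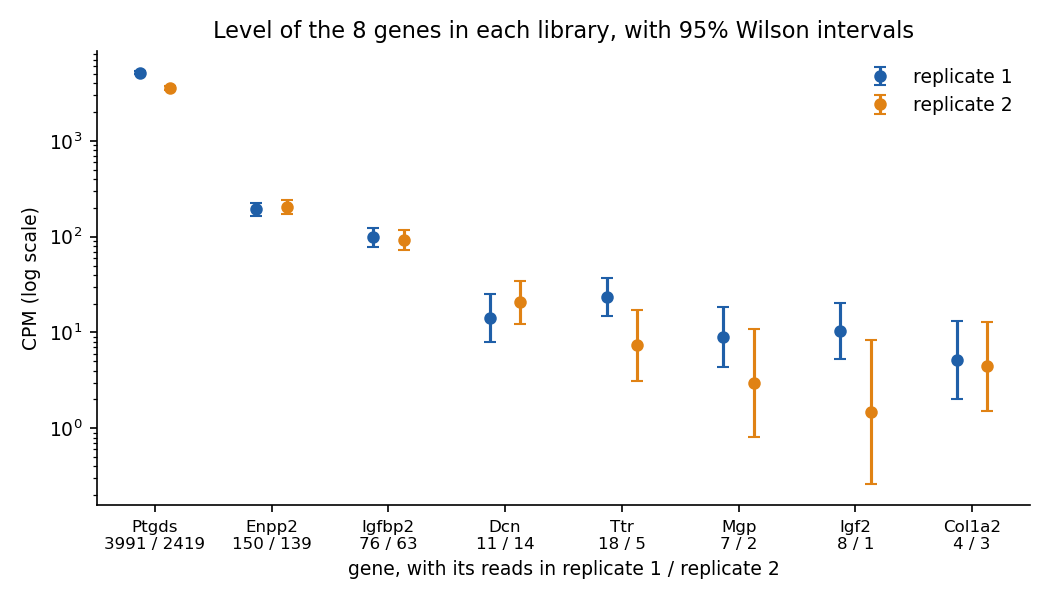
Level of each gene in CPM on a log axis, with replicate 1 left of replicate 2 and bars for 95% Wilson intervals. Ptgds stands at 5152 and 3562 CPM, above Enpp2 at 194 and 205 CPM, and the 5 genes at the right have at most 18 reads in either library.

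The test of the libraries against each other was a two-sided exact binomial test for each gene with at least 20 reads in total, with Benjamini-Hochberg adjustment over all 9143 such genes. It compares 2 libraries as sequenced, not conditions. Of those genes 182 (1.99%) passed the adjusted threshold of 0.05, with 67 (0.733%) higher and 115 (1.26%) lower in replicate 1. That split was 91 and 97 with TMM scaling from edgeR and 153 and 90 with DESeq2 size factors. Among the 8 genes, 5 had enough reads for the test and 1 was called, Ptgds. Mgp, Igf2 and Col1a2 had under 20 reads and were not tested.

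Ptgds codes for lipocalin-type prostaglandin D2 synthase, which converts prostaglandin H2 into prostaglandin D2 and is one of the main proteins of cerebrospinal fluid. The gene lies at chr2:25466709-25470046 on the minus strand of mm10. It stood at 5152 CPM in replicate 1 (interval 4995 to 5314) and 3562 CPM in replicate 2 (3423 to 3706), a mean of 4357 ± 1125 CPM (SD, n = 2). The log2 ratio of replicate 1 over replicate 2 was 0.53 with a counting SE of 0.04, or 1.45-fold, and the adjusted p by the exact binomial test was 5.79e-44. The ratio was 0.57 with TMM scaling and 0.61 with DESeq2 size factors. Among the 21 genes with a mean CPM within a factor of 2 of Ptgds, the nearest in log2 ratio were Ckb at 0.34, Gm15459 at 0.24 and Pkm at 0.24, over 2 libraries.

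**Figure D2:**
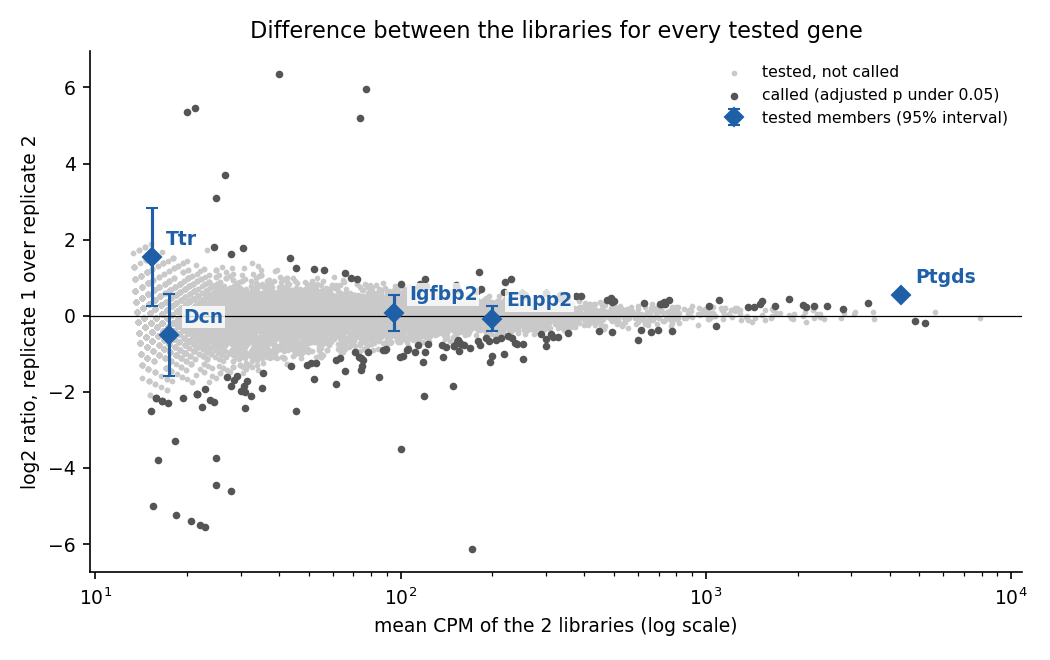
Log2 ratio of replicate 1 over replicate 2 (vertical) against mean CPM on a log axis (horizontal) for the 9143 tested genes, with the 5 tested members as diamonds and 95% intervals from the counting SE. Ptgds stands at 0.53 and Ttr at 1.54, and Enpp2, Igfbp2 and Dcn have intervals that include 0.

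Some markers of other cell types were also higher in replicate 1, and their part in the Ptgds difference was not tested. Of 10 oligodendrocyte markers, all with reads, 8 were tested and 1 was called higher in replicate 1, Mbp (myelin basic protein), at 1490 CPM in replicate 1 and 1269 CPM in replicate 2 (adjusted p 0.0259, exact binomial test). The summed level of the 10 was 2223 CPM in replicate 1 and 1976 CPM in replicate 2, and the median log2 ratio of those tested was 0.09 against -0.03 over all genes tested. The 5 blood markers summed to 461 CPM in replicate 1 and 246 CPM in replicate 2, with Hba-a1 (alpha globin) called at 249 and 112 CPM, although near-identical globin copies can share reads. The median log2 ratio of the 4 blood markers tested was 0.87. The 8 endothelial markers were mixed: they summed to 524 CPM in replicate 1 and 470 CPM in replicate 2, but the median log2 ratio of the 5 tested was -0.26. Cldn5 (a tight junction protein) was called higher at 265 and 172 CPM, and the glucose transporter Slc2a1 stood at 59.4 and 100.1 CPM (adjusted p 0.157, exact binomial test). In a tissue sample, more cells of a type and more RNA per cell cannot be told apart.

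The markers bear on the label of the gene group too. All 15 meningeal fibroblast markers had reads, at a summed 266 CPM in replicate 1 and 228 CPM in replicate 2, or 236 and 202 CPM without the 3 of the 8 genes on that list. The most abundant were transporters of the arachnoid barrier and fibroblasts, Slc6a13 at 59.4 and 42.7 CPM and Slc22a8 at 41.3 and 42.7 CPM, followed by Pdgfra at 23.2 and 33.9 CPM and Crabp2 at 24.5 and 11.8 CPM. Of the 8 tested none was called. Reads from a tissue sample do not show which cells they came from. Whether Pdgfra, Slc22a8 and the other markers were read from meningeal cells was not tested. Of 13 choroid plexus epithelium markers, 7 had 0 reads in both libraries: Folr1, Aqp1, Otx2, Slc4a5, Calml4, Tmem72 and Steap1. Without Ttr the list summed to 15.5 CPM in replicate 1 and 13.3 CPM in replicate 2, mostly Kcnj13 at 11.6 and 8.83 CPM, while Sostdc1 and Clic6 averaged 1.38 and 1.29 CPM. Of the 6 choroid plexus markers with reads, Ttr, with 18 and 5, and Kcnj13, with 9 and 6, were above 3 reads in both libraries, and the other 4 had at most 2. The meningeal list also held genes with few reads, such as Lum with 5 and 1 and Slc47a1 with 1 and 0. The 9 mural cell markers summed to 174 and 190 CPM, led by Vtn, Rgs5, Acta2 and Pdgfrb, with none of the 3 tested called.

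Ptgds transcripts differed mainly in the second last exon, where a choice between 2 splice donors decides how much follows the stop codon. The annotated transcript Ptgds-201 uses the downstream donor and has a second last exon of 59 nt, and Ptgds-203 uses the upstream donor and has one of 26 nt. The donors lie 33 nt apart, 6 and 39 nt past the stop codon, so both transcripts hold the same 567 nt coding sequence of 189 codons. The junctions that set them apart are printed here from the GENCODE M21 transcripts (mm10), 5′ to 3′, with the last 15 bases of the second last exon in capitals and the start of the last exon in lower case. The Ptgds-203 intron is chr2:25466832-25467319 and that of Ptgds-201 is chr2:25466832-25467286, minus strand.
Ptgds-201: AGGGCTGGTCACATGgtgacctggcctcag
Ptgds-203: CAAGAGTAAACGCAGgtgacctggcctcag
The whole second last exon of Ptgds-203 shows, in capitals, the stop codon that both forms share.
Ptgds-203 second last exon: ataagtgcattcaagagTAAacgcag
The 33 nt that the upstream donor leaves out begin with GT.

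The long second last exon was in 2917 of 3991 reads in replicate 1 (73.1%, interval 71.7 to 74.4%) and in 1736 of 2419 reads in replicate 2 (71.8%, 69.9 to 73.5%). The short one was in 23.1% (21.8 to 24.4%) and 21.7% (20.1 to 23.3%). Of the reads at either donor, 24.0% in replicate 1 and 23.2% in replicate 2 used the upstream one, and these intervals overlapped. Both forms were higher in replicate 1, the long one at 3766 and 2556 CPM (log2 ratio 0.56, counting SE 0.04) and the short one at 1190 and 772 CPM (0.62, SE 0.08). A further 8 reads in replicate 1 and 1 in replicate 2 used a donor 4 nt from that of Ptgds-203. As whole transcripts, Ptgds-201 took 71.7% and 70.6% of reads and Ptgds-203 22.8% and 21.2%. The share of the major transcript was compared by a two-sided Fisher's exact test in 5961 genes with at least 20 reads in each library, of which 10 (0.168%) were called. Ptgds, Enpp2 and Igfbp2 were tested and none was called, with unadjusted p of 0.319, 0.904 and 0.659 and an adjusted p of 1 each.

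Retention of Ptgds introns, most often of the last, differed between the libraries beyond the counting intervals. Its 455 nt were kept in 143 of 3991 reads in replicate 1 (3.58%, interval 3.05 to 4.21%) and in 157 of 2419 reads in replicate 2 (6.49%, 5.58 to 7.54%), and the intervals did not overlap. In CPM the retained form stood at 185 in replicate 1 and 231 in replicate 2, a log2 ratio of -0.32 with a counting SE of 0.17, whereas both spliced forms were higher in replicate 1. The first intron was retained in 0.78% and 1.91% of the reads that show it, and the second in 0.93% and 2.32%, again with intervals apart. The 3 introns after these, the third, the fourth and the fifth, were retained in at most 0.10% of reads in replicate 1 and 0.41% in replicate 2. Where the first intron was kept, the last was kept too, in 31 of 31 reads in replicate 1 and 46 of 46 in replicate 2. Where the first intron was spliced out, the last was kept in 62 of 3868 reads in replicate 1 (1.60%, 1.25 to 2.05%) and 60 of 2292 in replicate 2 (2.62%, 2.04 to 3.35%). This comparison was added after the values were seen. Its intervals met only at their ends, at 2.05% and 2.04%. Such overlap does not show equal shares, and the difference was not tested. Models that start inside the first intron kept the last in 36 of 60 reads in replicate 1 and 47 of 69 in replicate 2. The remaining reads kept it in 14 of 32 and 4 of 12. All 5 introns before the last were spliced as in Ptgds-201 in 96.2% and 94.2% of reads. Single-exon, antisense and genomic reads also took larger shares in replicate 2 over all genes, and their part in these shares was not tested.

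Ptgds belongs to the prostaglandin pathway, in which cyclooxygenases (Ptgs1, Ptgs2) feed synthases and the products act on receptors. Of 18 listed genes 17 had reads, 5 were tested and Ptgds alone was called. The next by level were the prostaglandin E synthases Ptges3 at 157 and 149 CPM and Ptges2 at 73.6 and 79.5 CPM, and the carbonyl reductase Cbr1 at 83.9 and 57.4 CPM. Of the prostaglandin D2 receptor genes, Ptgdr2 had 0 reads, and Ptgdr had 2 in replicate 1 and 0 in replicate 2. The median log2 ratio of the tested genes was 0.08.

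Enpp2 codes for autotaxin, a secreted lysophospholipase D that makes lysophosphatidic acid. The gene lies at chr15:54838901-54952892 on the minus strand. It stood at 194 CPM in replicate 1 (165 to 227) and 205 CPM in replicate 2 (173 to 242), a mean of 199 ± 7.80 CPM (SD, n = 2). The log2 ratio was -0.08 with an SE of 0.17, and the exact binomial test gave an unadjusted p of 0.638 and an adjusted p of 0.953. Most of its reads spanned the gene: 131 of 150 in replicate 1 (87.3%) and 130 of 139 in replicate 2 (93.5%) held both a first intron and the last. The transcript Enpp2-201, of 25 exons and 3095 nt, took 92 reads (61.3%) and 84 reads (60.4%). The other models over 5% of reads were both unannotated combinations of annotated splice sites. One with the far upstream first exon of Enpp2-205 had 11 and 13 reads, and one that lacks a 12-nt segment had 13 and 7.

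Annotated autotaxin forms differ by cassette exons and a donor choice, and all of these are multiples of 3 nt. The exons are shown because they set the protein forms apart. The 75-nt exon 20 of Enpp2-202 (chr15:54851348-54851422), which adds 25 codons and marks the gamma form, is in capitals between 15 bases of each neighbouring exon, from GENCODE M21 on mm10, minus strand.
Enpp2-202: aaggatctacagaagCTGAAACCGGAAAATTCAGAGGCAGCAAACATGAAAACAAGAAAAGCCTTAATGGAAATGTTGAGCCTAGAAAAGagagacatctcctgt
The 156-nt exon 12 of Enpp2-203 (chr15:54877776-54877931), which adds 52 codons and marks the alpha form, is shown likewise.
Enpp2-203: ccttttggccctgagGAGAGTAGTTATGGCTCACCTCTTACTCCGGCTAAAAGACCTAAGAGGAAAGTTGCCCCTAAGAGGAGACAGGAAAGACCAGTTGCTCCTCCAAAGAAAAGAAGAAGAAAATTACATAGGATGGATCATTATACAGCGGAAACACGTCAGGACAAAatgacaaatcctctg
The 12-nt end of exon 18 of Enpp2-201 (chr15:54862498-54862509), 4 codons that an upstream donor leaves out, is in capitals between 30 bases on each side. It begins with GT.
Enpp2-201: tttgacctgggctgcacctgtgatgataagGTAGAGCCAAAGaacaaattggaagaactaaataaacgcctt
The form with neither cassette exon, which is the beta form, was the most frequent. The 75-nt exon was included in 5 of 147 reads in replicate 1 (3.40%, 1.46 to 7.71%) and 5 of 135 in replicate 2 (3.70%, 1.59 to 8.38%). The 156-nt exon was included in 1 of 145 reads in replicate 1 and 1 of 133 in replicate 2. The 12-nt segment was left out in 18 of 147 reads in replicate 1 (12.2%, 7.89 to 18.5%) and 12 of 136 in replicate 2 (8.82%, 5.12 to 14.8%). None of these shares differed beyond the counting intervals.

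The coding part of the first exon was a further choice, and by the annotation it too changes the coding sequence. As annotated, Enpp2-205 has only 3 exons and 482 nt, and protein was not measured. Enpp2-205 begins 32.89 kb upstream of Enpp2-201, and its first exon codes for 73 codons where that of Enpp2-201 codes for 11, both in frame with the next exon. The 2 coding parts, from the start codon in capitals, are chr15:54952548-54952766 and chr15:54919929-54919961, minus strand.
Enpp2-205: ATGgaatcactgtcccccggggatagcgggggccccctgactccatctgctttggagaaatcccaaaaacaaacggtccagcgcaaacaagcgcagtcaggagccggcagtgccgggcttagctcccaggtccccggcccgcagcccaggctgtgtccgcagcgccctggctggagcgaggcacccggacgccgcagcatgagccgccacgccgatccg
Enpp2-201: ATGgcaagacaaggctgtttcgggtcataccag
The far exon was used in 14 of 133 reads that join a first intron in replicate 1 (10.5%, 6.37 to 16.9%) and 21 of 131 in replicate 2 (16.0%, 10.7 to 23.3%). Reads that cover both places allowed these choices to be read together. Over both libraries the 12-nt segment was left out in 6 of 35 reads with the far first exon (17.1%, 8.10 to 32.7%) and in 22 of 225 with that of Enpp2-201 (9.78%, 6.55 to 14.4%). The 75-nt exon was in 0 of 34 reads with the far first exon (0 to 10.2%) and in 10 of 224 with the other (4.46%, 2.44 to 8.02%). Both pairs of intervals overlapped.

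Exon 23 of Enpp2-201, of 133 nt and so not a multiple of 3, was skipped in 1 of 144 reads in replicate 1 (0.69%, 0.12 to 3.83%) and 9 of 136 in replicate 2 (6.62%, 3.52 to 12.1%). The intervals overlapped only from 3.52 to 3.83%, which does not show equal shares, and the difference was not tested. Of the other internal exons, all but exon 4 were skipped in 0 reads. In the lysophosphatidic acid list 8 of 10 genes had reads and none of the 4 tested was called. Besides Enpp2 they were led by the lipid phosphatases Plpp3 at 148 and 159 CPM and Plpp1 at 78.7 and 89.8 CPM, and the receptor Lpar1 at 14.2 and 25.0 CPM, while the receptors Lpar2 and Lpar4 had 0 reads.

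**Figure D3:**
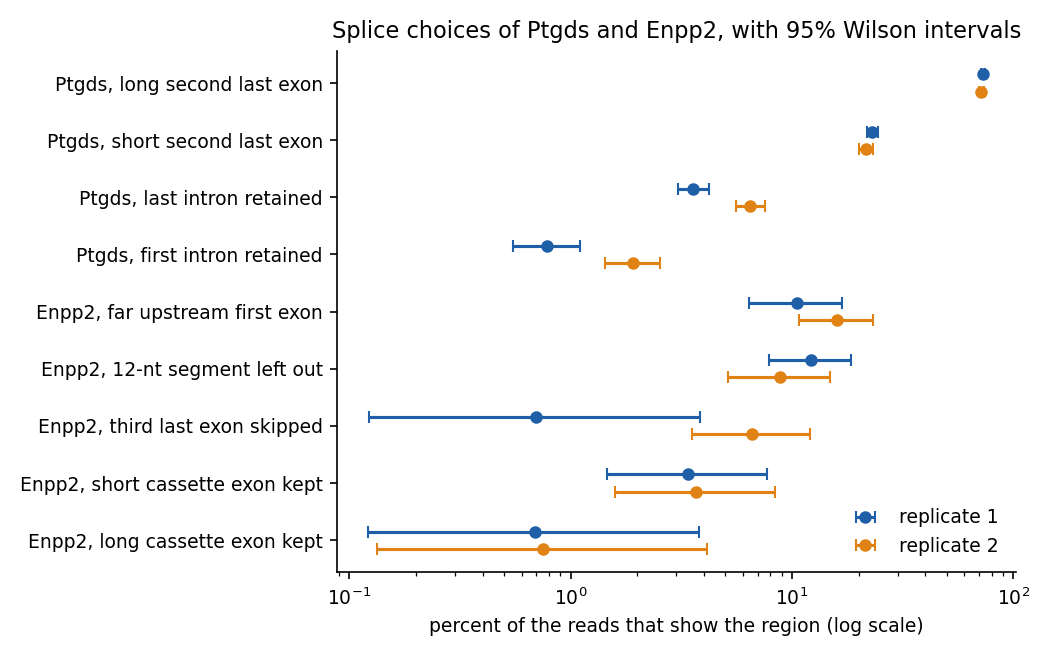
Share of the reads covering each splice choice of Ptgds and Enpp2, on a log axis, with replicate 1 above replicate 2 and 95% Wilson intervals; the short and long cassette exons of Enpp2 are those of 75 and 156 nt, and the one named the third last is exon 23. The intervals are apart for the 2 retained Ptgds introns, at 3.58% and 6.49% for the last and 0.78% and 1.91% for the first, and overlap for the other choices. Overlap does not show equal shares, and for exon 23 it is narrow.

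Igf2 and Igfbp2 belong to the insulin-like growth factor axis, in which Igf2 is an imprinted ligand gene and Igfbp2 is a secreted binding protein that holds the ligands. Igfbp2, at chr1:72824503-72852474 on the plus strand, stood at 98.1 CPM in replicate 1 (78.4 to 123) and 92.8 CPM in replicate 2 (72.5 to 119), a mean of 95.4 ± 3.78 CPM (SD, n = 2). The log2 ratio was 0.08 with an SE of 0.24, and the adjusted p by the exact binomial test was 1. The 4-exon transcript Igfbp2-201 held 74 of 76 reads in replicate 1 and 60 of 63 in replicate 2. Of the other 5 reads, 1 in each library used a donor 4 nt further into the second intron, and 1 in each used a donor 1752 nt past that of the first exon, and the remaining one, in replicate 2, joined 2 unannotated sites around the first intron.

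Igf2, at chr7:142650766-142666816 on the minus strand, had 8 reads in replicate 1 (10.3 CPM, 5.23 to 20.4) and 1 read in replicate 2 (1.47 CPM, 0.26 to 8.34), and the intervals overlapped. All 9 reads were on the same single-exon model of 856 nt, chr7:142650769-142651624, which matches an exon of Igf2-202 and lies in the 3′ UTR 2191 nt past the stop codon. None of the reads joined an intron or reached the coding sequence. The annotation gives 7 distinct starts of coding Igf2 transcripts, and no read could show which of them was used. The reads therefore give the gene's 3′ end only, and the count is not tied to a spliced Igf2 transcript.

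Of the 21 genes of the axis 15 had reads, and none of the 8 tested was called, with a median log2 ratio of 0.09. The binding proteins Igfbp4 at 107 and 105 CPM and Igfbp6 at 101 and 86.9 CPM were the most abundant listed genes beside Igfbp2 and Igf2bp3. Igf2bp3, an RNA-binding protein named for Igf2 mRNA, stood at 77.5 CPM in replicate 1 and 134 CPM in replicate 2 (log2 ratio -0.78, adjusted p 0.0513, exact binomial test). H19, the imprinted neighbour of Igf2, had 0 reads in both libraries, as did Igfbp1, Igfals, Igf2bp1, Pappa and Pappa2.

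The matrix genes Dcn, Col1a2 and Mgp were read few times. Dcn codes for decorin, a small proteoglycan that binds collagen fibrils, and lies at chr10:97479609-97518143 on the plus strand. It had 11 reads in replicate 1 (14.2 CPM, 7.93 to 25.4) and 14 in replicate 2 (20.6 CPM, 12.3 to 34.6), a log2 ratio of -0.51 with an SE of 0.55 and an adjusted p of 0.858 by the exact binomial test. The 8-exon transcript Dcn-201 held 9 of 11 reads in replicate 1 and 14 of 14 in replicate 2, each with all 7 introns joined. Dcn-202, whose first exon starts 2758 nt away and whose coding sequence is the same, had 1 read, in replicate 1. Among the small leucine-rich proteoglycans 9 of 11 had reads and none of the 3 tested was called. Fmod stood at 32.3 and 38.3 CPM, Prelp at 16.8 and 28.0 CPM, and Bgn at 10.3 and 5.89 CPM, while Kera and Epyc, best known from the cornea and from cartilage, had 0 reads.

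Col1a2 codes for the alpha 2 chain of type I collagen and lies at chr6:4504814-4541544 on the plus strand. Its 4 reads in replicate 1 (5.16 CPM, 2.01 to 13.3) and 3 in replicate 2 (4.42 CPM, 1.50 to 13.0) were on 7 different models. The annotated Col1a2-201 has 52 exons and 5348 nt. All 7 reads joined its last intron and none joined its first. In replicate 1 the read models held 22, 21, 11 and 4 exons, and in replicate 2 they held 48, 17 and 16, and the longest was 4332 nt. Col1a1, the partner chain, was looked at after these values were seen: 7 of its 11 reads in replicate 1 and 8 of its 14 in replicate 2 joined all 50 introns of the 5930-nt Col1a1-201. Among 560 genes with a longest coding transcript of at least 4000 nt and 5 to 9 reads, 33.8% also had no read on an annotated transcript, and the median share of such reads was 20.0%. The absence of a full Col1a2 transcript thus rests on 7 reads.

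**Figure D4:**
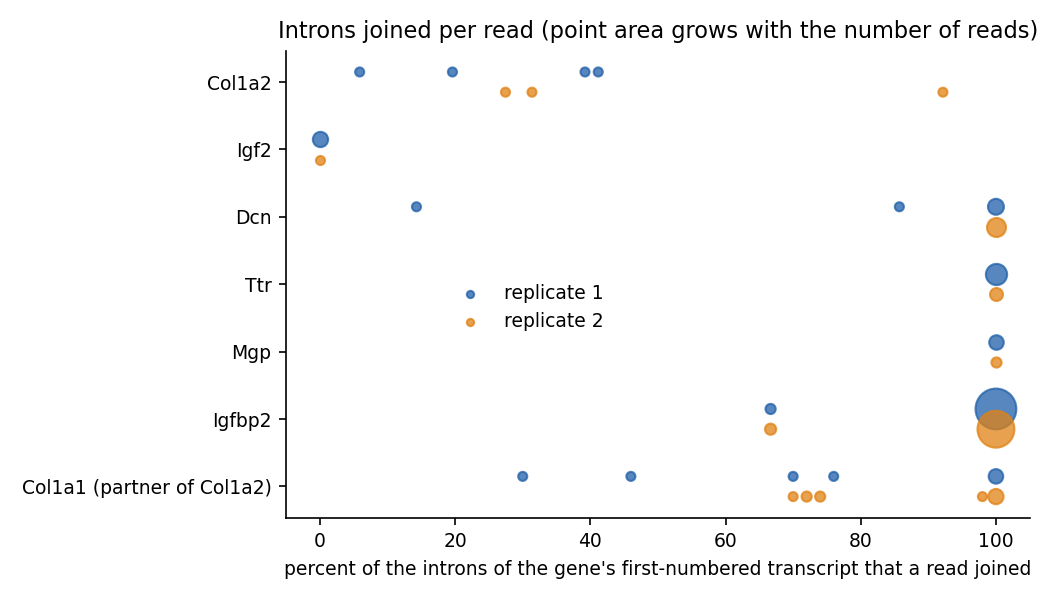
Percent of the introns of the first-numbered transcript of each gene (Col1a2-201 and its like) that a read joined, with replicate 1 above replicate 2 and point area growing with the number of reads. The 7 Col1a2 reads are spread below 100% and the 9 Igf2 reads lie at 0, while all Ttr and Mgp reads lie at 100%.

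In the fibrillar collagen list 19 of 20 genes had reads and 1 of 9 tested was called, Bmp1, the protease that trims procollagen, at 46.5 CPM in replicate 1 and 102 CPM in replicate 2 (log2 ratio -1.11, SE 0.29, adjusted p 0.0107, exact binomial test). The helper enzymes P4hb, at 188 and 158 CPM, and P4ha1, at 54.2 and 60.4 CPM, and the collagen chaperone Serpinh1, at 36.1 and 39.8 CPM, were not called. The median log2 ratio of the 9 was -0.24.

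Mgp codes for matrix Gla protein, a vitamin K-dependent inhibitor of calcification, and lies at chr6:136872435-136875823 on the minus strand. It had 7 reads in replicate 1 (9.04 CPM, 4.38 to 18.7) and 2 in replicate 2 (2.94 CPM, 0.81 to 10.7), with intervals that overlapped. All 9 reads joined the 3 introns of Mgp-201, of 617 nt. Of 12 listed genes around vitamin K and bone morphogenetic proteins 11 had reads, and none of the 6 tested was called. Gas6, a vitamin K-dependent ligand, stood at 101 and 66.3 CPM, Vkorc1l1 (a vitamin K reductase) at 49.1 and 72.1 CPM, Spp1 (osteopontin) at 42.6 and 39.8 CPM and Bmp6 at 28.4 and 13.3 CPM. Bglap (osteocalcin) had 0 reads.

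Ttr codes for transthyretin, the carrier of thyroxine and of the retinol-binding protein, and is the most used marker of choroid plexus epithelium. It lies at chr18:20665280-20674321 on the plus strand. It had 18 reads in replicate 1 (23.2 CPM, 14.7 to 36.7) and 5 in replicate 2 (7.36 CPM, 3.14 to 17.2), a mean of 15.3 ± 11.2 CPM (SD, n = 2). The log2 ratio was 1.54 with an SE of 0.65, and the exact binomial test gave an unadjusted p of 0.0200 and an adjusted p of 0.277, so the difference was not called. All 23 reads joined the 3 introns of the 1186-nt Ttr-201. The other choroid plexus markers with reads had 15.5 CPM in sum in replicate 1 and 13.3 CPM in replicate 2, and their part in the Ttr values was not tested. Of 13 genes of thyroid hormone and retinol transport 10 had reads and none of the 8 tested was called. Thra, the main thyroid hormone receptor of the brain, stood at 416 and 393 CPM, the thyroxine transporter Slco1c1 at 80.0 and 97.2 CPM, Rbp4 at 42.6 and 56.0 CPM and the activating deiodinase Dio2 at 37.4 and 54.5 CPM.

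The 8 genes differed in how much of their reads lay on annotated transcripts. The share was 95.7% and 94.2% for Ptgds, 97.4% and 95.2% for Igfbp2, 90.9% and 100% for Dcn, and 100% in both libraries for Ttr and Mgp, against 71.0% and 67.9% over all annotated genes. Enpp2 had 65.3% and 64.0%, with 19.3% and 25.2% on new combinations of annotated splice sites against 6.64% and 7.05% over all genes. Igf2 and Col1a2 had 0 in both. The share fell with length over all genes with at least 5 reads, with a median of 90.2% where the longest coding transcript was under 1000 nt, 81.5% up to 2000 nt, 68.2% up to 4000 nt and 36.0% above, so length moves with the order of the 8 genes and its part was not tested. Ptgds had 52 distinct transcripts, of which the 24 found in both libraries held 99.4% of its reads, and Enpp2 had 42, of which 9 were in both and held 86.5%. In these counts the unannotated single-exon models of a gene were pooled as 1, whatever their position. The pool counts as found in both libraries for Ptgds, with 7 and 2 reads, and for Enpp2, with 2 and 1. The models of annotated transcripts carry the annotated ends, so their reads do not show where each molecule began or ended.

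**Figure D5:**
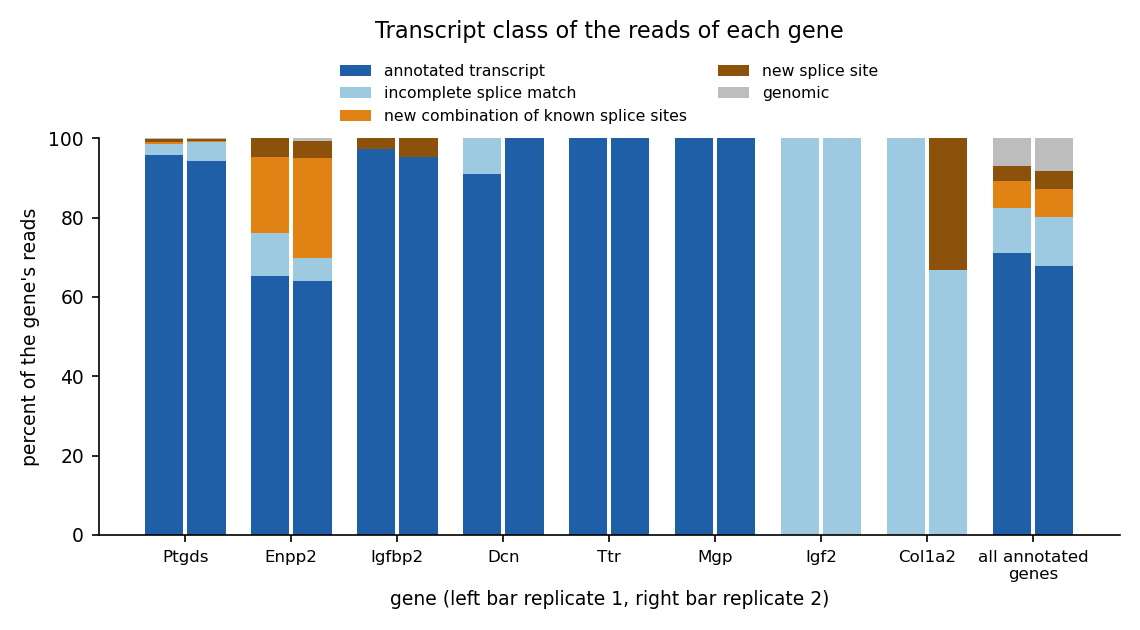
Percent of each gene's reads by transcript class, with the bar of replicate 1 left of that of replicate 2, and all annotated genes at the right. Ptgds, Igfbp2, Ttr and Mgp are nearly all annotated transcripts, Enpp2 has 19.3% and 25.2% of new combinations, and Igf2 and Col1a2 have no annotated transcript.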

How the data were processed

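Long-read RNA sequencing of 2 libraries of 1 group was analysed from the tables deposited by the authors. The deposited values are whole-number counts of reads per transcript model, not normalized, with the exons of each model in a separate annotation. Genome build mm10 and annotation GENCODE M21 are named in the deposited notes, and TALON in the source column of the annotation, per the file headers. The aligner, read orientation, versions and filters have no statement in the sources used here. Exon numbers and lengths of models were used as deposited.

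Gene counts are sums over all models of an annotated gene, with spike-in models (1.58% of reads in replicate 1 and 1.33% in replicate 2) left out. Total reads were 871524 and 839150. Log2 ratios are on CPM with a pseudocount of 1. Unannotated models were matched by their chain of introns, splice choices were read from these chains, and sequences were cut from the GENCODE M21 transcripts. Unannotated single-exon models, which have no such chain, were pooled within each gene. The exact binomial and Fisher tests (SciPy 1.17.1) were tested on simulated data with counting error only. That simulation cannot show how the tests behave under other variation between libraries. The packages edgeR 4.0.16 and DESeq2 1.42.0 gave alternative scalings only. The 8 genes and the marker and pathway lists were chosen with earlier results of these data known. The text names all 8 genes, up to 4 genes per list by mean CPM, genes called or at 0 reads, models with at least 5% of their gene's reads, and the 3 genes most like Ptgds. It also names Ptgdr, Lum and Slc47a1 for their few reads and Col1a1 as the partner of Col1a2.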

Additional observations from a re-analysis of the deposited data

Results flagged for a closer look

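Reads antisense to Enpp2, on models of loci absent from the annotation, numbered 12 in replicate 1 and 32 in replicate 2, above the limit of 3 reads that a count of 0 allows. They lay on 7 and 12 models, of which 0 and 3 reads were on models with more than 1 exon. Per 100 reads of Enpp2 itself they came to 8.0 in replicate 1 and 23.0 in replicate 2, while antisense models over the whole library took 8.85% and 16.9% of mouse reads. The first pair is relative to sense reads of 1 gene and the second to all mouse reads, antisense included. The 2 pairs are therefore not directly comparable. Of the other 7 genes, Igfbp2 had 1 such read in replicate 1, and the rest had none in either library. These reads enter no gene count.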

How the results depend on the processing

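The number of genes that differed between the libraries, 182, was 188 with TMM scaling, 243 with DESeq2 size factors, 189 with a minimum of 10 reads and 154 with no minimum. It was 55 with reads of annotated transcripts only and 78 with reads of multi-exon models only, in which fewer genes were tested. The number of genes with a differing major transcript share, 10, was 1 with annotated transcripts only (2622 genes tested), 10 without incomplete splice matches and genomic models, and 11 with a minimum of 10 reads. The difference in the share of the major transcript, replicate 1 minus replicate 2, changed sign for Ptgds, at -0.0061 percentage points with annotated transcripts only and -0.21 without incomplete splice matches and genomic models, against 1.17, and for Enpp2 at -0.50 with annotated transcripts only, against 0.90; the cause was not tested and no share was called in any of these.

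All 35 alternative log2 ratios of the 5 genes tested kept their direction and their side of the threshold, and Ptgds ranged from 0.49 to 0.61. The 18 of Mgp, Igf2 and Col1a2 kept their sign, and where these genes were tested, with no minimum, the lowest adjusted p was 0.642. Igf2 had no value with annotated transcripts only or multi-exon models only, and Col1a2 none with annotated transcripts only, since no reads were left. Among alternatives that keep both libraries, levels moved by more than 1 SD in 11 of 24 and model shares in 6 of 16. With 1 library left out the level is that of the other, and for Igf2 this is 1.47 or 10.3 CPM, for Ttr 7.36 or 23.2 CPM and for Mgp 2.94 or 9.04 CPM. The difference in Ptgds last-intron retention was -2.91 percentage points, -1.01 among reads with the first intron spliced and -1.08 among annotated transcripts, both chosen after seeing the data. A comparison of the libraries could not be made without either of them. No paired analysis was possible because the labels give 1 group only. Depth limits Dcn, Ttr, Mgp, Igf2 and Col1a2, with at most 25 reads each over both libraries.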
